A study of Mus musculus with 9 samples.

Results

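Camp, Ltf, Ngp, Lcn2, Mmp8, Chil3, S100a8 and S100a9, 8 of the 28379 genes of the deposited table, were followed through every library of a study on osteoclast formation. They were chosen by gene symbol as a group of neutrophil granule and calprotectin genes, with results of these data already known. Bone marrow-derived macrophages (BMDMs) were grown from the non-adherent marrow cells of 10-week-old C57BL/6J mice in 20 ng/ml M-CSF, the growth factor that keeps macrophages alive, which all groups received. For 48 h, the cells of 3 libraries got PBS, those of 3 got RANKL at 100 ng/ml, the cytokine that turns macrophages into osteoclasts, and those of 3 got the same RANKL with vitamin D (calcitriol) at 1000 nM and vitamin K (MK4) at 20 µM (RANKL + Vit D + K). The vitamin K dose is that of the labels, and the study's methods state a higher one. Each group held 3 RNA sequencing libraries numbered as replicates 1 to 3. The labels do not say whether these came from separate mice or cultures, and the study's methods speak of pooled RNA, so errors and p-values measure the spread between libraries, which may be technical.

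Neutrophils store antimicrobial proteins in granules that are filled one kind after another while the cell matures in the marrow. Primary granules carry myeloperoxidase and serine proteases, and the later specific granules carry lactoferrin, cathelicidin, lipocalin-2 and collagenase. Calprotectin, the dimer of S100A8 and S100A9, fills the cytosol of neutrophils and is also made by monocytes. Of the 8 genes, Camp encodes the cathelicidin antimicrobial peptide, Ltf the iron binding protein lactoferrin, Ngp a granule protein of the cystatin family, and Lcn2 the siderophore binding lipocalin-2. Mmp8 encodes neutrophil collagenase, and Chil3 encodes Ym1, a secreted chitinase-like protein that alternatively activated macrophages make as well.

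The libraries held 65915112 to 68229647 counts over all genes, and 17002 genes passed the filter on low counts, all 8 among them. The 8 macrophage markers fixed as a list (Csf1r, Adgre1, Cd68, Itgam, Mertk, Fcgr1, Cd14 and Lyz2) were all detected in every library. Their summed counts ran from 3020673 to 3440661 in PBS, from 1892940 to 2829176 in RANKL and from 561930 to 1337010 in RANKL + Vit D + K. Of the neutrophil's own surface markers, Ly6g was at 0 in 8 of the 9 libraries, with 7 counts in PBS replicate 2, and Cxcr2, the receptor for neutrophil chemokines, did not pass 36 counts in any library. Others that macrophages share were abundant, such as Csf3r with 8866 to 12898 counts and Fpr1 with 2470 to 5084 counts in PBS. No share of neutrophils was estimated from the data, and in bulk RNA fewer cells of a type and less RNA per cell cannot be told apart.

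The genes lie in few places of the mouse genome (coordinates of the deposited table, GRCm38). Camp (9:109847379-109849617, minus strand), Ngp (9:110419747-110423012, plus strand) and Ltf (9:111019271-111042767, plus strand) stand near each other on chromosome 9, with 16 other genes of the table between Camp and Ngp and 21 between Ngp and Ltf. S100a8 (3:90668978-90670035, plus strand) and S100a9 (3:90692632-90695721, minus strand) are neighbours 22.6 kb apart on chromosome 3, with 0 genes of the table between them. Mmp8 (9:7558456-7568485, plus strand), Chil3 (3:106147554-106167564, minus strand) and Lcn2 (2:32384633-32387797, minus strand) stand alone.

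Bases just upstream of 5 of these genes are shown: 4 of those that ran together across the libraries, and Mmp8, which did not. Camp, Lcn2 and Chil3, which also ran together with the first 4, are not shown. The sequences are RefSeq's (GRCm38.p6), written 5′ to 3′ on the strand of the gene, and they end before the first annotated base of the gene. Capitals mark the letters TTNNGNAA of C/EBP factors or GAGGAA of PU.1, on either strand.
Ngp (chr9:110419558-110419746, plus strand): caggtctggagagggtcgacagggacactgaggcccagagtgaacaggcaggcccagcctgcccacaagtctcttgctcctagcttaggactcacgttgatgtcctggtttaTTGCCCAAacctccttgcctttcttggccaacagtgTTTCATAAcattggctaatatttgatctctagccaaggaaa
Ltf (chr9:111019042-111019270, plus strand): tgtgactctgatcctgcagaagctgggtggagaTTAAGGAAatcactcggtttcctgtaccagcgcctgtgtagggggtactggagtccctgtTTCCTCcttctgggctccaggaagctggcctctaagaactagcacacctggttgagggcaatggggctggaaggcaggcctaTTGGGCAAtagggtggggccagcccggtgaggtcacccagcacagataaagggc
S100a8 (chr3:90668821-90668977, plus strand): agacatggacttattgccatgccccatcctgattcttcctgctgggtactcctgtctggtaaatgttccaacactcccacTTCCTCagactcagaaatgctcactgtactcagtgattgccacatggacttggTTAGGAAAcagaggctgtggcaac
S100a9 (chr3:90695722-90695971, minus strand): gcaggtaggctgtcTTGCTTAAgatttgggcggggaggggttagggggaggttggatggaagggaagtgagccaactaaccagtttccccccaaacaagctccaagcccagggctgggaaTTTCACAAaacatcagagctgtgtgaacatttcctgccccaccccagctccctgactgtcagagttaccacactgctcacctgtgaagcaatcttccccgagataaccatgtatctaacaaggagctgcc
Mmp8 (chr9:7558179-7558428, plus strand): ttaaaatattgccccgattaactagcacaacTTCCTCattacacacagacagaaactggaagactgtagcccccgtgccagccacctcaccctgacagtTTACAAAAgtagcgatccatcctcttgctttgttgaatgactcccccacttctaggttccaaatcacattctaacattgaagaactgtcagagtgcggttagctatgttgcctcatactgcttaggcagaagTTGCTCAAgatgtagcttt
In the window from 250 bases before to 50 bases after the RefSeq start, C/EBP letters stood in 7 of the 8 genes (all but Camp), against 40.7% of 32851 mouse promoters. PU.1 letters stood in 4 (Lcn2, S100a8, Mmp8 and Ltf), against 28.3% of promoters, and no PU.1 match overlapped a C/EBP match. The direct repeat of the vitamin D response element, searched on both strands, stood in 0 of the 8 windows and in 0.700% of all promoters. With so low a share, 0 of 8 could hardly have come out otherwise, and bases outside the windows were not searched. Nothing is read from it. Mmp8, whose levels ran differently, carried both C/EBP and PU.1 letters, and Camp, whose levels ran with those of the other genes, carried neither. What these letters do in the cells was not tested.

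Across the libraries, 7 of the 8 genes varied many-fold between replicates of PBS and of RANKL and stood at a trace or at 0 in RANKL + Vit D + K. Mmp8 was abundant, even between replicates, and already lower with RANKL alone. The summed counts of the 7 genes without Mmp8 were 5137, 10146 and 919 in PBS replicates 1, 2 and 3, then 8185, 12178 and 995 in RANKL, and 139, 173 and 91 in RANKL + Vit D + K. The highest vitamin library stood below the lowest of the other 6. Since the genes were picked with these levels known, their values are given as a description, and the calls of the fit over all genes are counted further on only beside the share of all genes.

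**Figure D1:**
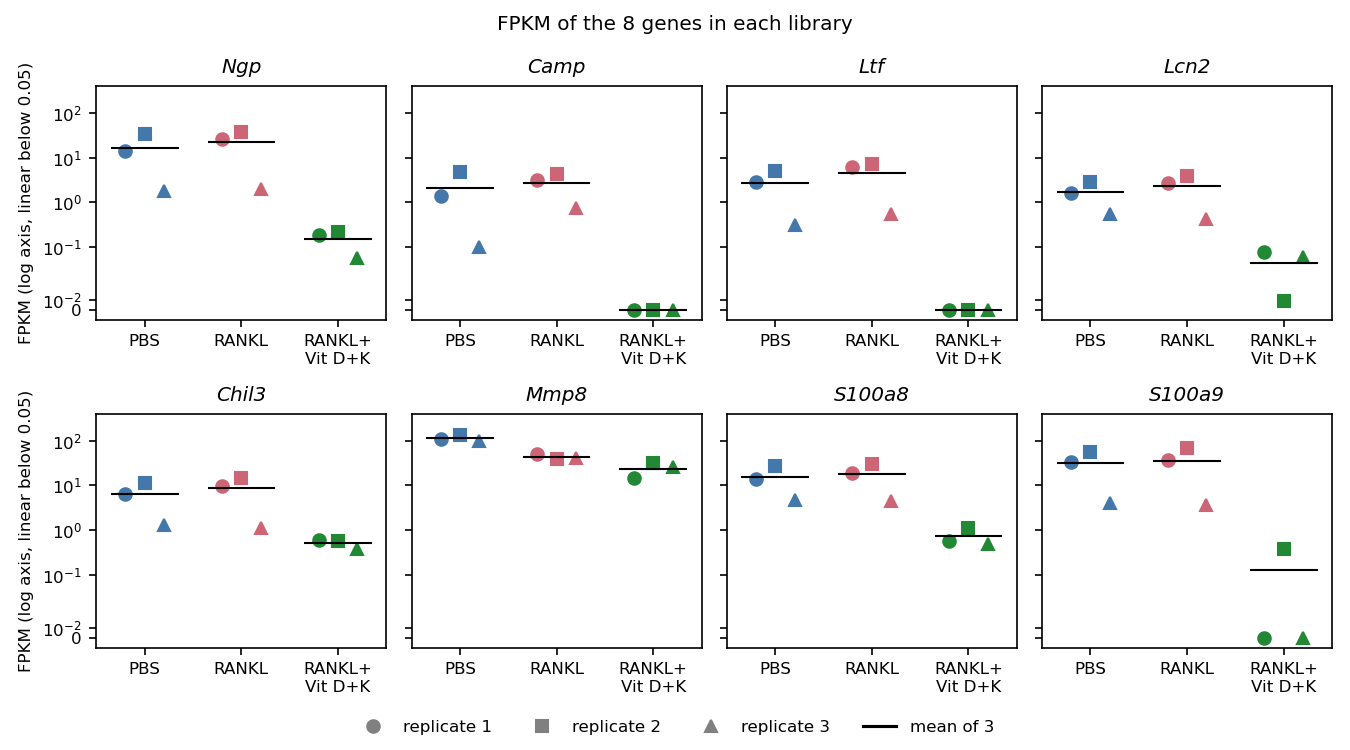
FPKM (fragments per kilobase of transcript, scaled to sequencing depth) of each of the 8 genes, 1 panel a gene, on a log axis that is linear below 0.05. Each point is 1 library, its shape gives the replicate number, and the bar is the mean of 3. In 7 panels replicate 3 lies lowest in PBS and in RANKL and the vitamin libraries lie below all others, while the Mmp8 points of a group lie close together and step down from PBS (96.8 to 132) to RANKL (39.2 to 50.7) to RANKL + Vit D + K (14.3 to 31.0).

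Of Ngp, Camp, Ltf and Lcn2, Ngp had the highest mean FPKM in each of the 3 groups. Its FPKM was 14.3, 32.8 and 1.81 in PBS, 25.7, 37.6 and 1.98 in RANKL, and 0.183, 0.217 and 0.0574 in RANKL + Vit D + K. PBS and RANKL overlapped over their whole range, and the vitamin libraries lay apart below both. The lowest RANKL library exceeded the highest vitamin library 9.10 times. On the log2 scale of the counts the difference of RANKL + Vit D + K from RANKL was -6.92 ± 1.37 (SE of the fit, 3 libraries a group), and that of RANKL from PBS was 0.28 ± 1.01. Over the 19 other settings of the fit these ran from -7.48 to -3.66 and from -0.31 to 1.34.

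Lactoferrin and cathelicidin were not detected with the vitamins. Ltf had 730, 1263 and 82 counts in PBS, 1552, 1820 and 150 counts in RANKL, and 0 in every vitamin library. Camp had 77, 274 and 6 counts in PBS, 177, 243 and 44 in RANKL, and again 0 in all 3 vitamin libraries. A count of 0 allows up to 3 counts a library, about 0.0440 to 0.0455 CPM (counts scaled to depth) here, counting error only. Against that floor Ltf was at least 391-fold lower in the vitamin libraries than in RANKL, and Camp at least 51.4-fold lower. Against PBS the bounds were 231-fold for Ltf and 39.6-fold for Camp. Without PBS replicate 2 these fell to 137-fold and 14-fold. Counts of RANKL and PBS overlapped in both genes: mean FPKM of Ltf was 2.68 ± 2.28 in PBS and 4.54 ± 3.49 in RANKL (SD, n = 3), and that of Camp was 2.09 ± 2.43 and 2.71 ± 1.81. Between libraries of the same number the FPKM ratio of RANKL to PBS was 2.10, 1.45 and 1.80 for Ltf and 2.26, 0.894 and 7.52 for Camp, and for Ngp it was 1.80, 1.15 and 1.09. Ltf and Ngp were thus higher with RANKL in all 3 pairs and Camp in 2 of 3, and the fit with the replicate number as a block called none of these differences.

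Lcn2, which binds the iron carriers of bacteria and is also made by stimulated macrophages, kept a trace. Its counts were 308, 572 and 108 in PBS, 522, 740 and 89 in RANKL, and 16, 2 and 13 in RANKL + Vit D + K. The vitamin libraries again lay wholly below the others, with a ratio of mean FPKM of RANKL to RANKL + Vit D + K of 48.0. The log2 differences were -5.22 ± 1.02 from RANKL and -4.91 ± 1.01 from PBS. Over the 19 other settings they ran from -5.75 to -1.48 from RANKL and from -5.38 to -1.25 from PBS.

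The collagenase Mmp8 was the exception in level and in pattern. Its counts were 19615, 24135 and 17534 in PBS, 9191, 7094 and 7881 in RANKL, and 2597, 5790 and 4616 in RANKL + Vit D + K. The 3 groups formed 3 separate steps with no overlap, and only for this gene of the 8 did RANKL and PBS not overlap, as 19.9% of all genes did not with RANKL the lower. Mean FPKM was 113 ± 18.0 in PBS, 43.9 ± 6.03 in RANKL and 23.6 ± 8.50 in RANKL + Vit D + K (SD, n = 3). The log2 differences were -1.48 ± 0.23 for RANKL from PBS, -0.77 ± 0.23 for the vitamins from RANKL and -2.26 ± 0.24 for the vitamins from PBS. The step from RANKL to the vitamins was therefore small beside those of the other 7 genes, of which the smallest was that of Chil3 at -3.84 ± 0.97.

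Chil3 lay least far below RANKL among those 7 and kept a count in every vitamin library. Its FPKM was 6.49, 11.4 and 1.27 in PBS, 9.76, 14.7 and 1.08 in RANKL, and 0.603, 0.566 and 0.371 in RANKL + Vit D + K. The lowest RANKL library, replicate 3, was 1.80 times the highest vitamin library, the narrowest gap of the 7. The table holds its close relative Chil4 as well, with 3 counts in PBS replicate 2 and 0 elsewhere, and how reads shared by such near copies were assigned cannot be told from the counts.

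Both calprotectin subunits overlapped between PBS and RANKL, and with the vitamins S100a8 kept more of its level than S100a9. S100a8 had an FPKM of 13.6, 27.1 and 4.73 in PBS, 18.9, 29.8 and 4.37 in RANKL, and 0.574, 1.13 and 0.493 in RANKL + Vit D + K. S100a9 had 32.7, 56.5 and 3.98 in PBS, 36.0, 66.9 and 3.66 in RANKL, and 0, 0.375 and 0 in RANKL + Vit D + K. S100a8 thus stayed detectable in all 3 vitamin libraries, with 26 to 61 counts, while S100a9 was seen only in replicate 2, with 16 counts. The log2 differences from RANKL were -4.41 ± 0.81 for S100a8 and -7.87 ± 1.59 for S100a9. The S100a9 value rests on the 16 counts of that library: without it the gene was at 0 with the vitamins, at least 458-fold lower than with RANKL, and with limma on log2(FPKM + 1) the difference was -4.35.

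**Figure D2:**
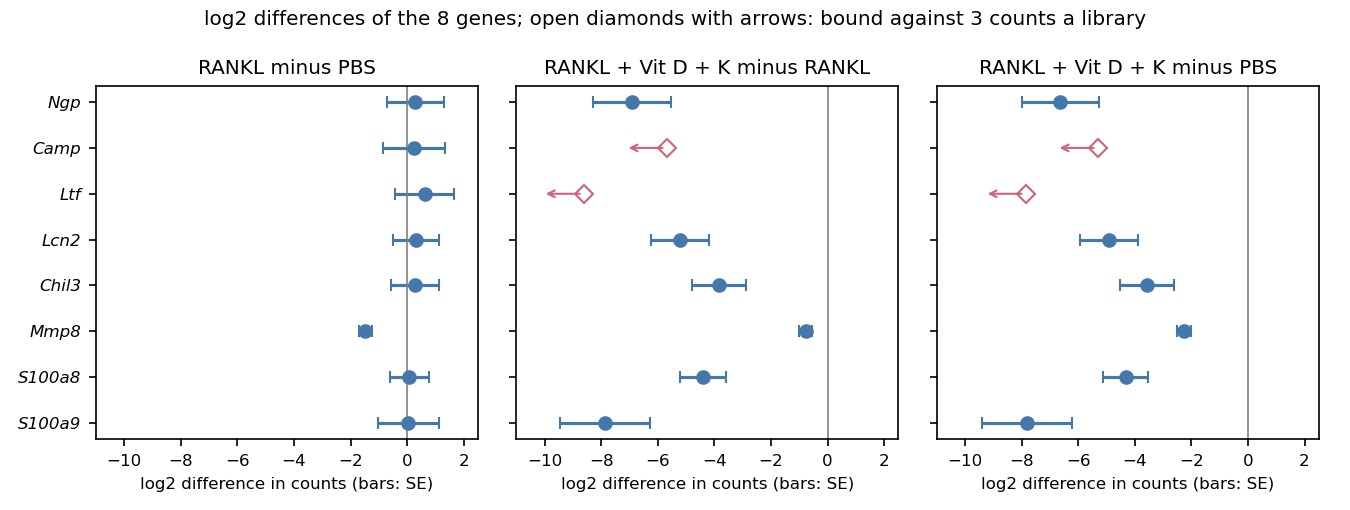
Log2 differences in counts of the 8 genes in the 3 comparisons, with bars of 1 standard error (3 libraries a group, edgeR). Open diamonds with arrows mark Camp and Ltf, at 0 in all vitamin libraries, at the bound against 3 counts a library. In RANKL minus PBS only Mmp8 (-1.48) lies clear of 0 by more than its error, while against the vitamins 7 genes lie at -3.56 or below and Mmp8 at -0.77 and -2.26.

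All 8 genes were called lower (adjusted p under 0.05, edgeR over all 17002 genes) in the vitamin libraries than in RANKL, beside 17.2% of all genes called lower, and all 8 lower than in PBS, beside 21% of all genes. Between RANKL and PBS 1 was called lower, Mmp8, beside 1.26% of all genes, and 0 were called higher, beside 2.35% (also 0 at an unadjusted p under 0.05, with DESeq2 and with limma). All counts of the vitamin group lay below all counts of RANKL for the 8, which held for 25.4% of all genes, and below all counts of PBS, which held for 29%. Nothing is read from these counts, because the genes were chosen on the same contrasts. The median log2 difference over the 8 was -6.07 from RANKL and -5.78 from PBS, or -5.45 and -5.11 with Camp and Ltf at their bounds. Over all genes the medians were both -0.04. These 2 comparisons share the vitamin libraries, and the comparisons with RANKL share the RANKL libraries. The Mmp8 call of RANKL against PBS was lost without PBS replicate 1 (log2 difference -1.45) or without RANKL replicate 2 (-1.37). Its call of the vitamins against RANKL was lost without RANKL replicate 1 (-0.64), RANKL replicate 3 (-0.79) or RANKL + Vit D + K replicate 3 (-0.86), and with only those 2 groups in the fit (-0.78). Chil3 lost its call against RANKL without RANKL + Vit D + K replicate 3 (-3.68), and its call against PBS without that library (-3.34) or without PBS replicate 2 (-2.82). With limma on log2(FPKM + 1) Chil3 was called neither against RANKL nor against PBS, and Camp, Ltf and Lcn2 lost their calls against PBS.

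Replicates of PBS and of RANKL were far apart in the 7 genes. In both groups replicate 2 was the highest and replicate 3 the lowest for the 7 genes without Mmp8. That order was shared by 882 of the 17002 genes tested, or 5.19%. The mean FPKM of replicates 1 and 2 over replicate 3 was 12.5 in PBS and 11.8 in RANKL for Ltf, 11.2 and 14.1 for S100a9, and 4.30 and 5.57 for S100a8. For Mmp8 it was 1.25 and 1.08. The log2 range over the 3 libraries placed the 7 genes between the percentiles 95.0 and 99.9 of all tested genes in each group, and Mmp8 near the middle, at 53.1 and 52.5. In Camp, Ltf, Ngp, S100a9 and Chil3 replicates 1 and 2 each reached at least 4 times replicate 3 in both groups, as they did in 131 genes, 0.770% of those tested. The numbers 1 to 3 did mark shared variation between PBS and RANKL across all genes, but a shared mouse, day or batch is not given in the labels, and what the numbers mark was not tested.

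The 7 genes moved together from library to library. Over all 9 libraries the Pearson correlations of log2(CPM + 1) between pairs of them ran from 0.947 to 0.996 (21 pairs, median 0.988), whereas the 7 pairs with Mmp8 ran from 0.48 to 0.66. Over the 6 libraries of PBS and RANKL the ranges were 0.914 to 0.997 and -0.10 to 0.079. The points share the libraries and the group differences, so the values are descriptions. Within a library some proportions were steady: the FPKM ratio of Ngp to S100a9 stayed between 0.438 and 0.715 in the 6 PBS and RANKL libraries while S100a9 itself varied from 3.66 to 66.9. The ratio of the calprotectin subunits was less even. S100a8 over S100a9 was 0.418 and 0.480 in PBS replicates 1 and 2 and 0.526 and 0.445 in RANKL replicates 1 and 2, but 1.19 and 1.20 in the low replicates 3. In the vitamin library that had both it was 3.01. Chil3 over Ngp likewise was 0.347 to 0.699 in PBS and RANKL and 2.60 to 6.47 in the vitamin libraries, at counts of 6 to 75.

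**Figure D3:**
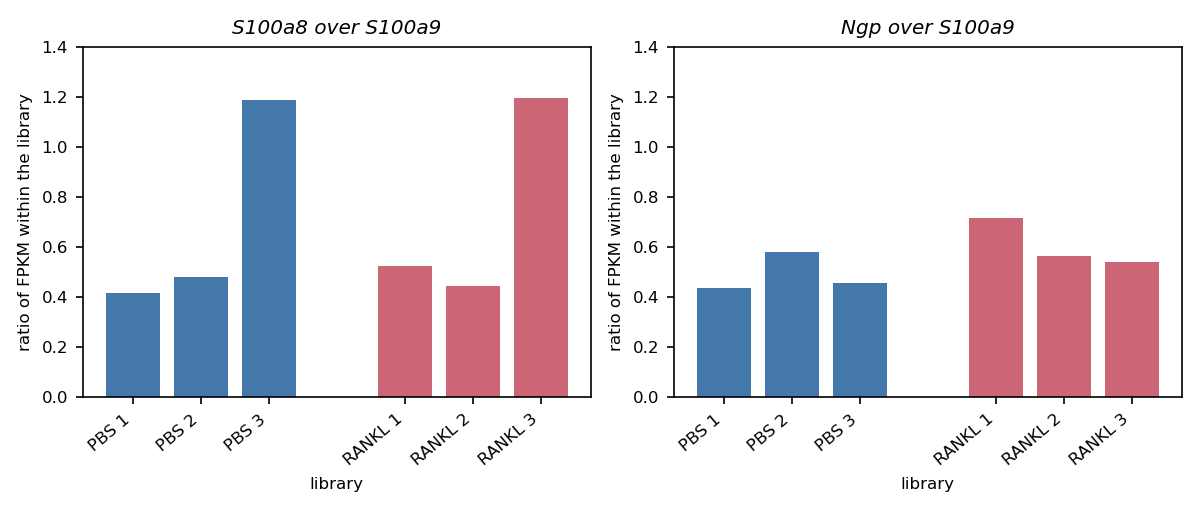
FPKM ratio of S100a8 to S100a9 (left) and of Ngp to S100a9 (right) within each PBS and RANKL library, 1 bar a library. The left ratio stands at 1.19 and 1.20 in replicate 3 of PBS and of RANKL and between 0.418 and 0.526 in the other 4 libraries, and the right ratio runs from 0.438 to 0.715.

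Neutrophil genes outside the 8 showed both kinds of behaviour. Of 39 listed, 36 were in the table and 26 passed the count filter. With the vitamins against RANKL, 12 of the 26 were called lower and 0 higher by edgeR, where 17.2% and 16.4% of all genes were called. The 12 became 6 without RANKL + Vit D + K replicate 3 and 7 without RANKL replicate 1 or 2. With only the RANKL and vitamin groups in the fit, 18 were tested and 8 called lower. At an unadjusted p under 0.05, with DESeq2 and with limma 1 was higher, Trem3. The median log2 difference of the list was -4.46, or -2.82 with genes at 0 in all vitamin libraries set at their bound, beside -0.04 over all genes. Against PBS 15 were called lower and 4 higher (21% and 19.8% of all genes). RANKL against PBS gave 2 higher and 3 lower, beside 2.35% and 1.26% of all genes. The 3 lower were lost when any 1 library of PBS replicate 1, PBS replicate 3 or the RANKL group was left out (0 called), 1 was left without RANKL + Vit D + K replicate 3, and 5 were called without its replicate 2.

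The primary granule genes were near the limit of detection. Myeloperoxidase (Mpo) had 22, 163 and 4 counts in PBS, 63, 237 and 0 in RANKL, and 0 in all vitamin libraries. Neutrophil elastase (Elane) had 17, 102 and 11 counts in PBS, 33, 95 and 0 in RANKL, and 0 with the vitamins. Both were highest in replicate 2 and lowest in replicate 3 of either group, as the 7 genes were. Elane was called lower with the vitamins than with RANKL (adjusted p = 0.043, edgeR), at least 14.2-fold against the floor, or 5.50-fold without RANKL replicate 2. The call was lost when any library other than PBS replicate 2 or RANKL replicate 3 was left out. Mpo, at least 33.3-fold lower, stood at an adjusted p of 0.0504 in the same fit and was not called, and its bound without RANKL replicate 2 was 10.5-fold. Proteinase 3 (Prtn3), with 13, 112 and 7 counts in PBS and 0 with the vitamins, was called lower against PBS (adjusted p = 0.037) at a bound of 14.6-fold, or 3.38-fold without PBS replicate 2. That call was lost without PBS replicate 1 or 2, RANKL replicate 1 or any 1 vitamin library. Cathepsin G (Ctsg), with 0 to 42 counts in RANKL and 0 to 10 with the vitamins, was called in neither.

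Replicate 3 was the lowest library of PBS and of RANKL in 11 of the 26 tested neutrophil genes outside the 8, beside 12.4% of all tested genes, and in 12 of the 36 in the table: Mpo, Elane, Prtn3, Ctsg, Itgb2l, Pglyrp1, Mmp9, Retnlg, Olfm4, Cxcr2, Mrgpra2b and Cebpe. In 7 of these replicate 2 was the highest too. All vitamin libraries were at 0 in 8 of the 26 tested genes of the list, beside 1.41% of all tested genes, and in 9 more that failed the filter on low counts. A gene at 0 there can pass the filter only through PBS and RANKL, and these 8 had low counts. Nothing is therefore read from that share. Correlation with the mean profile of the 8 genes over the 6 PBS and RANKL libraries ran from -0.45 for Orm1 to 0.964 for Pglyrp1, a granule protein that binds bacterial peptidoglycan.

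Csf3r, Cd177 and Slpi were called lower with RANKL, as Mmp8 was, and the first pair lower still with the vitamins. Csf3r, the G-CSF receptor, had 12898, 8866 and 12601 counts in PBS, 5471, 2093 and 4891 in RANKL, and 1587, 1309 and 1613 with the vitamins. It fell by 1.60 ± 0.35 on the log2 scale with RANKL (adjusted p = 0.045, edgeR) and by a further 1.31 ± 0.35 with the vitamins (adjusted p = 0.020). Cd177, a surface antigen of neutrophils, had 1794, 698 and 979 counts in PBS, 379, 280 and 251 in RANKL and 3, 7 and 10 with the vitamins. Its log2 differences were -2.08 ± 0.41 (adjusted p = 0.027) and -5.34 ± 0.52 (adjusted p = 4.0e-04), both from edgeR. The protease inhibitor Slpi fell by 1.54 ± 0.31 with RANKL (adjusted p = 0.029). In none of these genes was replicate 3 the lowest library of PBS. The formyl peptide receptors Fpr1 and Fpr2 were lower with the vitamins than with RANKL, with log2 differences of -6.72 ± 0.78 and -4.51 ± 0.75 (adjusted p = 0.00082 and 0.0031, edgeR). Haptoglobin (Hp) fell by 3.72 ± 1.17 (adjusted p = 0.036), Padi4, which citrullinates histones, by 1.13 ± 0.25 (adjusted p = 0.0098) and Cxcr2 was at 0 with the vitamins (adjusted p = 0.031).

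Mmp9 and Anxa1 were called higher with RANKL than in PBS. Mmp9, the gelatinase that osteoclasts also make, had 125, 68 and 25 counts in PBS, 31576, 60257 and 18499 in RANKL, and 797, 1868 and 501 with the vitamins. It rose by 8.81 ± 0.81 with RANKL (log2, adjusted p = 0.0013, edgeR) and fell by 5.01 ± 0.67 with the vitamins (adjusted p = 0.0014). Annexin A1 (Anxa1) rose by 1.68 ± 0.21 with RANKL (adjusted p = 0.0053) and was not called between RANKL and the vitamins. Trem3, a receptor that signals through DAP12, was higher with the vitamins than in PBS by 3.03 ± 0.80 (adjusted p = 0.015, edgeR).

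**Figure D4:**
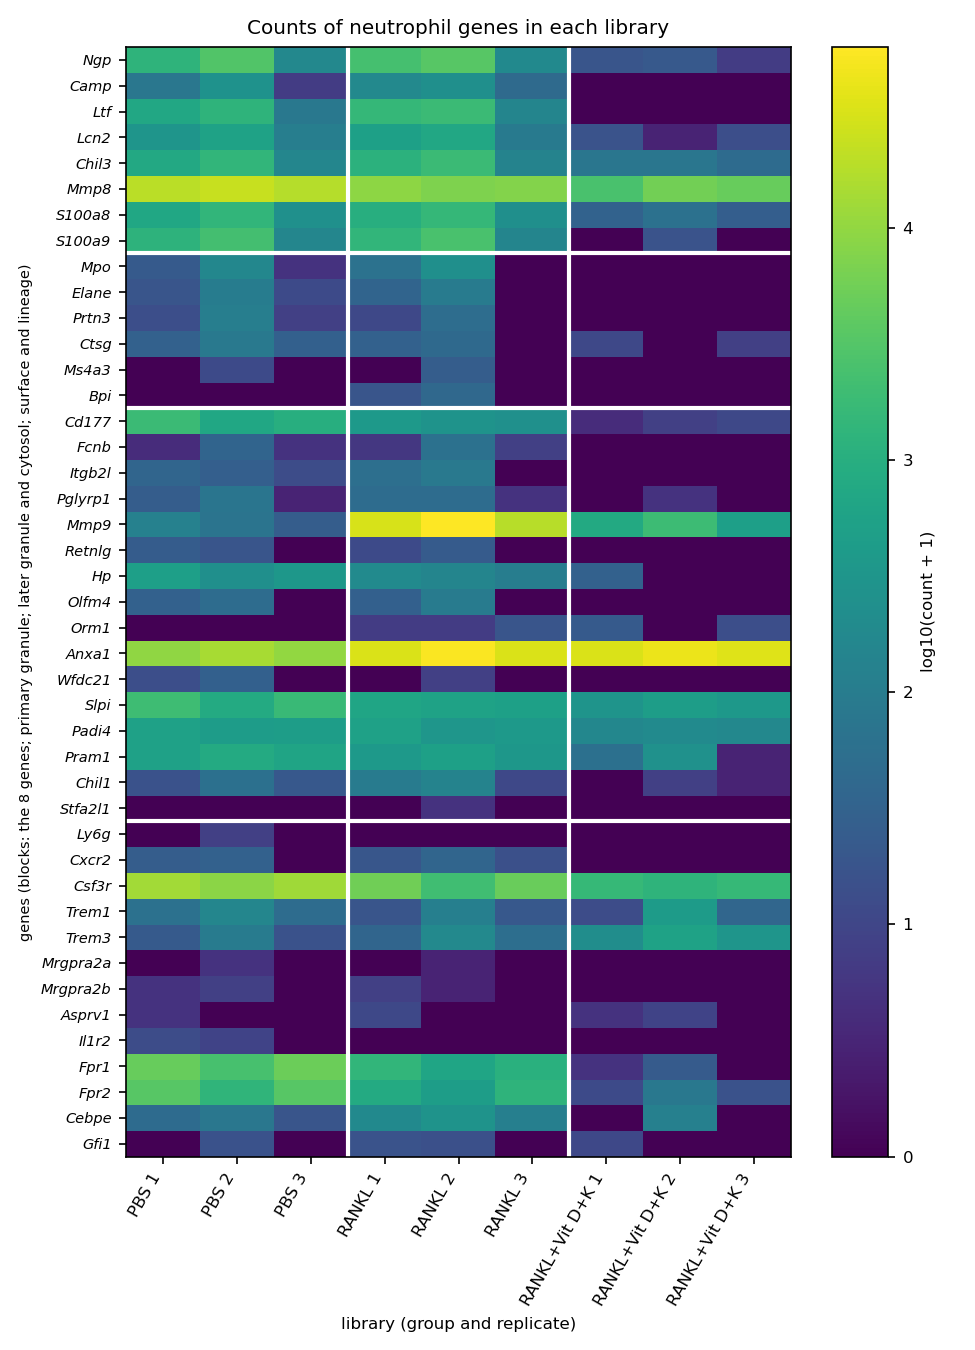
Heat map of log10(count + 1) of the 8 genes (top block) and of other neutrophil genes of the list (lower blocks: primary granule, later granule and cytosol, surface and lineage) in the 9 libraries. Dark cells are counts of 0. The columns of RANKL + Vit D + K are dark for Camp, Ltf and most primary granule genes, the columns of replicate 3 are darker than those of replicates 1 and 2 for the top block without Mmp8, and Mmp8, Csf3r and Anxa1 are bright in all 9 columns.

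The rest of the S100 family did not share the size of the calprotectin difference. Of 13 other S100 genes listed, 11 were in the table and 6 tested. Between RANKL and PBS edgeR called 0, with 4 at an unadjusted p under 0.05, while DESeq2 called 2 higher (S100a6 and S100a11) and limma 0. With the vitamins 4 were called lower than with RANKL, beside 17.2% of all genes, and 0 without RANKL replicate 1 or 3 or without RANKL + Vit D + K replicate 1 or 3. S100a4 fell by 1.43 ± 0.38 on the log2 scale (adjusted p = 0.019), S100a10, the partner of annexin A2, by 1.10 ± 0.37 (adjusted p = 0.045), S100a11 by 0.96 ± 0.26 (adjusted p = 0.020) and S100a13 by 0.55 ± 0.16 (adjusted p = 0.030). These were abundant transcripts, S100a4 with FPKM of 396 to 1377 in PBS and RANKL and 227 to 761 with the vitamins. Among chitinase-like genes only Chil1, which encodes a secreted lectin, passed the filter. It had 98, 135 and 10 counts in RANKL and 0, 7 and 2 with the vitamins, a fall of 4.60 ± 1.21 (adjusted p = 0.019, edgeR). That call was lost without RANKL replicate 1, RANKL replicate 2 or RANKL + Vit D + K replicate 3.

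Genes of the factors that act on granule genes were mostly present throughout. Cebpa, which starts granulocyte development, fell by 0.95 ± 0.16 with RANKL (adjusted p = 0.017, edgeR) and by a further 0.49 ± 0.16 with the vitamins (adjusted p = 0.044). Spi1, which encodes PU.1, fell by 0.46 ± 0.14 with the vitamins (adjusted p = 0.032), and Cebpb rose by 1.46 ± 0.28 (adjusted p = 0.0056). Cebpe, needed for specific granules, had 45, 79 and 17 counts in PBS, 184, 283 and 114 in RANKL and 0, 118 and 0 with the vitamins, and was called in no comparison. In all, of the 8 regulators 0 were called higher (0 also at an unadjusted p under 0.05, with DESeq2 and with limma) and 2 lower with RANKL by edgeR, beside 2.35% and 1.26% of all genes, and 1 higher and 2 lower with the vitamins against RANKL, beside 16.4% and 17.2%. Of 7 tested receptors for the secreted products, 2 were called higher and 3 lower in the vitamin libraries against RANKL. For all genes the shares were 16.4% and 17.2%. Cd36, a scavenger receptor, rose by 1.63 ± 0.28 (adjusted p = 0.0034) and Lrp1, an endocytic receptor of lactoferrin, by 0.66 ± 0.17 (adjusted p = 0.019), both by edgeR. Fpr2, P2rx7 (-1.46 ± 0.20, adjusted p = 0.0014) and the lipocalin receptor Slc22a17 (log2 difference -3.47 ± 1.16, adjusted p = 0.045) fell, all by edgeR. Slc22a17 had only 61, 30 and 61 counts in RANKL and 0, 13 and 0 with the vitamins. The calprotectin receptor Tlr4 was called lower against PBS, by 0.76 ± 0.21 (adjusted p = 0.019).

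Markers of other cells differed between the groups as well, and their part in these results was not tested. Of 6 inflammatory monocyte markers 4 were called lower with the vitamins against RANKL, beside 17.2% of all genes, and their summed counts were 33424 to 38317 in PBS, 20326 to 34854 in RANKL and 2443 to 4829 with the vitamins. Ly6c2 and Plac8 were at 0 in all 3 vitamin libraries. Of the 8 macrophage markers 6 were called lower and 1 higher, Cd68, beside 17.2% and 16.4% of all genes. Within the 6 libraries of PBS and RANKL these markers did not follow one course: their correlations with the mean profile of the 8 genes ran from -0.43 to 0.573 for the macrophage list and from -0.40 to 0.905 for the monocyte list. B cell markers summed to 42 to 86 counts in PBS and RANKL and to 0 to 6 with the vitamins. Erythroid and megakaryocyte markers reached at most 216 counts and stromal and endothelial markers at most 360. Eosinophil, basophil and mast cell markers reached at most 22, and none of them passed the filter. Of the T cell list only Cd4 was in the table, at 24 to 1137 counts. It was higher with RANKL than in PBS (log2 difference 2.35 ± 0.41, adjusted p = 0.020, edgeR) and lower in the vitamin libraries than in RANKL (-3.96 ± 0.45, adjusted p = 0.00077).

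The genes whose profile over the 9 libraries came closest to the mean of the 8 were Clec4b1 (Pearson r = 0.970), Cd5l (0.943), Anapc2 (0.942), Ctnnd1 (0.937), Gm45221 (0.936), Fbxo25 (0.933), Adam19 (0.930), Il10 (0.927), Zfp182 (0.926) and Ercc4 (0.921), taken from the 11836 tested genes whose FPKM averaged 1 or more in any group. Clec4b1, a C-type lectin receptor gene, was at 0.471 to 1.26 FPKM in PBS, 0.724 to 1.52 in RANKL and 0 to 0.0526 with the vitamins. Cd5l, the apoptosis inhibitor of macrophages, was at 4.54 to 10.3, 4.31 to 7.44 and 0.990 to 1.86. The resemblance rests on the low vitamin libraries as well as on the replicate order, and Anapc2 and Ctnnd1 shared it with differences of only -0.31 and -0.13 on the log2 scale between the vitamins and RANKL.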

How the data were processed

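The study sequenced 9 RNA libraries as paired-end reads, and per the labels the submitters' processing notes name cutadapt 1.9, HISAT2 2.0.4, StringTie 1.3.4d and edgeR. The deposited table holds whole-number counts per gene and, beside them, FPKM values computed by the authors. The notes name the build hg38, but the genes are mouse: of 28294 IDs found in GENCODE M21 (GRCm38), 87.2% had the same coordinates. No column of sample values was left unmapped. The value 4 occurred 2.22 times as often as 3 and 5 did on average, so dividing counts by 4 was one alternative.

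Counts were tested with edgeR 4.0.16 in R 4.3.3 (TMM, filterByExpr, quasi-likelihood, all 9 libraries in 1 fit, Benjamini-Hochberg over 17002 genes, threshold 0.05). The fit was also run on simulated counts with an equal spread for all genes and no replicate effect. That check did not cover genes absent from a group or many-fold apart between replicates. FPKM gave the levels, and CPM the correlations. Alternatives used DESeq2 1.42.0, limma 3.58.1 on log2(FPKM + 0.1) or log2(FPKM + 1), median-of-ratios size factors, no filter, a filter of 50 counts in 3 libraries, only the 2 groups compared, a replicate block, and each library left out. The 8 genes and all lists were chosen with earlier results of these data known. Text names the 8 genes, up to 6 called genes of lowest adjusted p from a list, 10 further neutrophil genes, macrophage markers and the 10 closest profiles; Pglyrp1, Orm1, Itgb2l, Retnlg, Olfm4, Mrgpra2b, Chil4, S100a6 and Plac8 were named after their values were seen. One gene of the lists is counted in them but not reported here. Libraries of PBS and RANKL with the same number deviated together over all genes (r = 0.345, 0.448 and 0.305), which pairs them. Same-numbered vitamin libraries deviated in the same direction, but more weakly (r from 0.0303 to 0.130 with PBS and from 0.0770 to 0.216 with RANKL). Each PBS and RANKL library was closest to the vitamin library of its own number. Vitamin replicate 1, however, was closer to PBS replicate 3 (r = 0.0737) than to PBS replicate 1.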

Additional observations from a re-analysis of the deposited data

How the results depend on the processing

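Counts of called genes moved most between RANKL and PBS. The 400 genes higher became 1056 with DESeq2, 1034 with only the 2 groups compared and 605 with limma on log2(FPKM + 0.1), and the 214 lower became 643, 702 and, without a filter, 122. With only the 2 groups compared, the 2929 genes lower with the vitamins than with RANKL became 1912, the 4 other S100 genes 1, and Chil1 fell below the filter and was not tested (0 called). With limma on log2(FPKM + 1) Chil1 was tested and not called (0), and 4 of the 8 members were called lower against PBS. Members called lower against RANKL were 7 in that limma fit (Chil3 lost) and 7 with only the 2 groups compared (Mmp8 lost). Without a filter 1 of the 3 other neutrophil genes lower with RANKL was called. Of the 15 lower with the vitamins than in PBS, 9 were called without a filter and 9 with counts divided by 4.

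A replicate block, by number over all 9 libraries, gave 538 higher and 287 lower genes between RANKL and PBS. It changed no call of the 8 members. The log2 differences and errors in the text are from the fit without this block unless another fit is named. The block called 1 other neutrophil gene higher with the vitamins than with RANKL in place of 0, as did DESeq2, both limma fits and counts divided by 4. It called 16 lower in place of 12, and DESeq2 called 15.

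Leaving out 1 library gave 96 to 972 genes higher and 30 to 931 lower between RANKL and PBS, the highest values without RANKL + Vit D + K replicate 2 and the lowest without PBS replicate 3. It gave 1578 to 3773 higher and 1621 to 4486 lower with the vitamins against RANKL, and 2469 to 4143 higher and 2297 to 4725 lower against PBS. Members called lower were 0 to 1 with RANKL, 6 to 8 with the vitamins against RANKL and 7 to 8 against PBS. Other neutrophil genes ranged from 2 to 3 higher and 0 to 5 lower with RANKL, from 0 to 1 higher (1 without PBS or RANKL replicate 2) and 6 to 15 lower with the vitamins against RANKL (7 without RANKL replicate 1 or 2, 6 without RANKL + Vit D + K replicate 3), and from 2 to 4 higher (2 without PBS replicate 1 or 3) and 8 to 16 lower against PBS (8 without PBS replicate 1 or 2 or RANKL + Vit D + K replicate 1, 9 without its replicate 3). Other S100 genes ranged from 0 to 5 and Chil1 from 0 to 1.

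After the data were seen, replicate 3 of PBS and of RANKL were left out together. Then 0 members were lower with RANKL, 7 against RANKL and 8 against PBS with the vitamins, and other neutrophil genes gave 1 higher and 0 lower with RANKL, and 2 higher in the vitamins against PBS. Among all results and settings 299 calls of single genes outside the 8 were lost and 0 called values changed sign. The causes were not tested. The depth allows no statement on Camp or Ltf below 3 counts a library.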
